A study of Mus musculus with 3 samples.

Results

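The genes described here encode the proteins of the 2 ribosomes of a mouse cell, the cytosolic ribosome and the ribosome inside mitochondria. They were chosen by name, not by their values. Cytosolic genes are those whose platform symbol starts with Rpl or Rps and a digit, without the Rps6k kinases and the pseudogenes ending in -ps. Mitochondrial genes start with Mrpl or Mrps and a digit. The rule found 123 genes of 18193 on the arrays, of which 47 were cytosolic and 76 mitochondrial, and each gene was read from its probe set with the highest mean signal. Because the rule reads names, it also took Rps19bp1, which encodes a protein that binds the ribosomal protein Rps19, and Mrps36, now known as a component of the mitochondrial 2-oxoglutarate dehydrogenase. It took 6 gene copies as well (Rpl22l1, Rpl39l, Rpl3l, Rpl7l1, Rps27l and Rps4l).

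The cytosolic ribosome translates the messages of nuclear genes, and its proteins are made in step with ribosomal RNA and assembled with it in the nucleolus. Many of their mRNAs begin with a run of pyrimidines, the terminal oligopyrimidine or TOP motif, through which the kinase mTOR sets their translation. The mitochondrial ribosome translates the few respiratory chain subunits encoded by mitochondrial DNA. Its proteins are encoded in the nucleus, made in the cytosol and imported, and the promoters of many of them are known targets of the factors NRF1, YY1 and the ETS factor GABP. In the olfactory epithelium, basal progenitors divide throughout life and give rise to immature olfactory sensory neurons (OSN), which extend an axon and cilia as they mature.

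Cells of the olfactory epithelium of Tgn1-2G transgenic mice of both sexes, aged 5 to 8 postnatal days, were sorted by fluorescence into 3 fractions. The GFP+++ fraction held 1000000 strongly fluorescent cells and is titled as immature OSN, the GFP+ fraction held 1300000 weakly fluorescent cells, and the GFP- fraction held 6800000 cells without fluorescence. All 3 come from mice that carry the transgene, which is known from other work to express GFP from regulatory DNA of Neurog1, a proneural gene switched on in olfactory progenitors. The submitters describe GFP+ as slightly enriched in mature OSN, and GFP- as holding every cell type of the epithelium with immature OSN depleted. Each fraction carries the label number 32 without a word on what it counts, and pooling of animals is not described beyond it. Each fraction was measured on 1 array, so no difference below has a replicate check, a test or a p-value. In such sorted samples, fewer cells of a type and less RNA per cell cannot be told apart.

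The sequences around the annotated start sites show a feature more frequent among the cytosolic genes than among all genes, and they are printed here for the 4 brightest cytosolic genes with an entry in the RefSeq promoter table of GRCm38.p6. Each window runs from 60 bases before the start to 30 bases from it on, 5′ to 3′ on the strand of the gene. Capitals mark a pyrimidine run, defined as a C followed by at least 5 further C or T, where it overlaps the 10 bases on either side of the start. Rpl38 lies at chr11:114668520-114668609 (+), Rpl7a at chr2:26910747-26910836 (+), Rps28 at chr17:33824533-33824622 (-) and Rps10 at chr17:27635215-27635304 (-).
Rpl38: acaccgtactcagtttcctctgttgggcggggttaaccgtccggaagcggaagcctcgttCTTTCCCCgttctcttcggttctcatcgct
Rpl7a: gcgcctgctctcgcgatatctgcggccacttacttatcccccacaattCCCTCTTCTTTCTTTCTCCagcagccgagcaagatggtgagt
Rps28: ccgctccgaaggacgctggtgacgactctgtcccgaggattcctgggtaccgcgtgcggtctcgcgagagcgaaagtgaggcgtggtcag
Rps10: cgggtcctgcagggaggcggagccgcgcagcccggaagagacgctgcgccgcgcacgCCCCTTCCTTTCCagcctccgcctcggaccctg
Rpl38, Rpl7a and Rps10 carry such a run at the start, and the Rps28 window holds none at this annotated start. Of 49 promoters of 41 cytosolic genes in the table, 51% had a pyrimidine run, against 27.4% of 73 promoters of 67 mitochondrial genes, 23.3% of the promoters of all genes above the floor on at least 1 array and 22.9% of all 32851 promoters. The annotated first base was C in 28.6% of the cytosolic promoters and in 15.1% of the mitochondrial ones, against 14.6% of those of genes above the floor and 16.3% of all. RefSeq starts can differ from the start used in these cells by some bases.

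Matches to other motifs were counted as well. The windows of the 4 mitochondrial genes with the highest fold in GFP+++ over GFP- are printed with capitals at matches to 3 motifs, searched on both strands: CCGGAAG for ETS factors, GCATGCGC for NRF1 and AAGATGGC for YY1. The windows lie at chr19:6057726-6057815 (-) for Mrpl49, chr11:88204328-88204417 (+) for Mrps23, chr13:99344726-99344815 (+) for Mrps27 and chr13:73330949-73331038 (+) for Mrpl36.
Mrpl49: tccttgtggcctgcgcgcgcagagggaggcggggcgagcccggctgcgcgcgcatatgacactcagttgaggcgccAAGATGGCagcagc
Mrps23: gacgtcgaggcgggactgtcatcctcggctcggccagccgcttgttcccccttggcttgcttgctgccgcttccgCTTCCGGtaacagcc
Mrps27: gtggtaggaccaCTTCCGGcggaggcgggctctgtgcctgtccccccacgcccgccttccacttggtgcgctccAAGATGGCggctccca
Mrpl36: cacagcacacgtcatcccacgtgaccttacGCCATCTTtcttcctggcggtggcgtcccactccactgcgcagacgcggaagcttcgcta
Over the full 300 bases of each promoter, the YY1 letters occurred in 16.4% of the mitochondrial promoters, against 8.16% of the cytosolic ones, 4.25% of those of genes above the floor and 2.75% of all promoters. The NRF1 letters occurred in 11% of the mitochondrial promoters, against 4.08% of the cytosolic ones, 5.06% of those of genes above the floor and 2.71% of all, so most mitochondrial promoters held neither. The ETS letters were frequent in both classes, at 34.2% of the mitochondrial and 38.8% of the cytosolic promoters, against 16.6% of those of genes above the floor and 8.86% of all. A match is a run of letters and not a measured binding site. Within a class, genes with and without these letters had medians that lay close together. The median log2 fold of GFP+++ against GFP- was -0.19 over 24 cytosolic genes with a pyrimidine run and -0.24 over 14 without, and it was 0.30 over 25 mitochondrial genes with the ETS letters and 0.23 over 42 without.

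Nearly all of the genes gave signal in all 3 fractions. A floor was set at 104, the pooled median signal, and lower signals were raised to it before folds were taken. All 76 mitochondrial genes and 43 of 47 cytosolic genes lay above the floor on the 3 arrays. Rps4l, a copy of Rps4x, gave 27.0 in GFP+++ and 100.4 in GFP+, against 178 in GFP-, and so was at least 1.70-fold lower in each GFP positive fraction than in GFP-. Rpl3l and Rpl39l, copies known from muscle and testis, lay under the floor on every array, at 18.2 or less and 33.4 or less. The core gene Rps16 was also under the floor, at 0.791 in GFP+++ and 0.724 in GFP+, against 1.27 in GFP-. That value describes 1 probe set and not the mRNA, because only probe sets with a single gene symbol could be named, and those that share letters with pseudogenes carry several symbols.

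**Figure D1:**
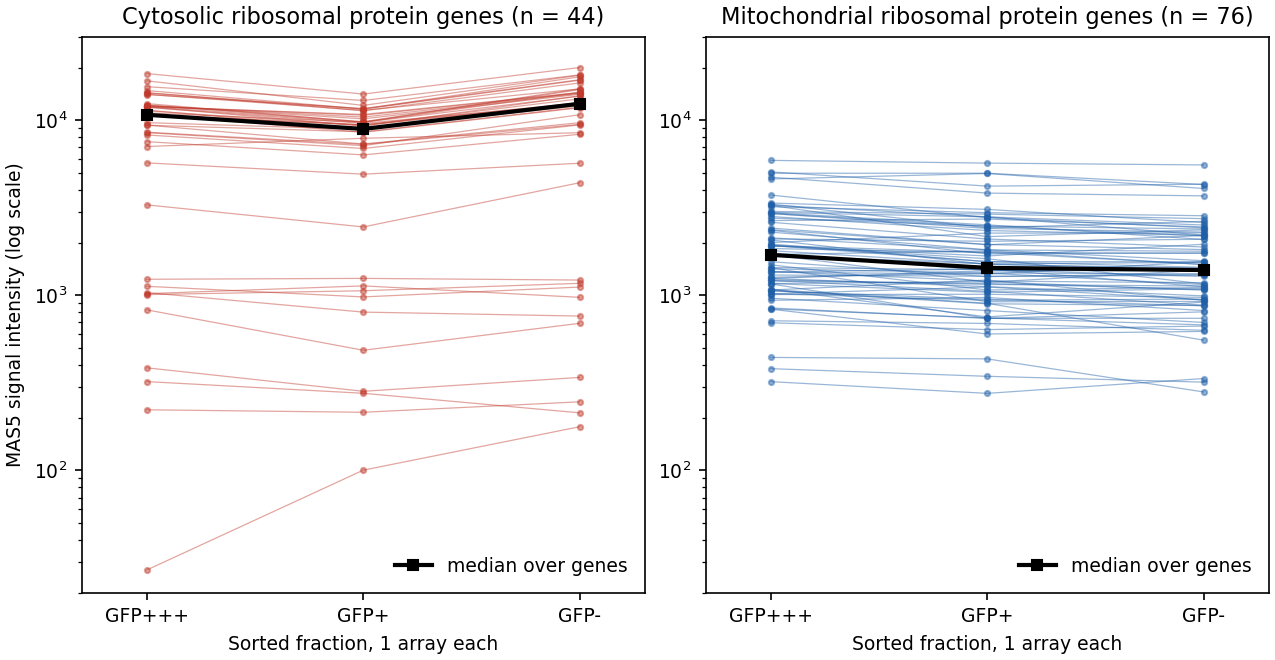
Signal intensity (log scale) of each ribosomal protein gene above the floor on at least 1 array, in GFP+++, GFP+ and GFP-, with cytosolic genes on the left and mitochondrial genes on the right. Thin lines join the values of 1 gene and black squares mark the class median, 10750 in GFP+++ and 8923 in GFP+, against 12431 in GFP-, for the cytosolic genes (highest in GFP+++ with median scaling) and 1704, 1435 and 1395 in the same fractions for the mitochondrial genes.

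The classes ran in different orders over the fractions. The cytosolic median signal was 10750 in GFP+++ and 8923 in GFP+, against 12431 in GFP-, so it was lowest in the weakly fluorescent cells and, with this scaling, highest in the cells without fluorescence; with median scaling it was highest in GFP+++. The mitochondrial median signal was 1704 in GFP+++ and 1435 in GFP+, against 1395 in GFP-, highest in the strongly fluorescent cells. Signals of different probe sets are not on 1 scale, so a brighter probe set does not mean more mRNA, and medians, sums and bright or dim describe probe set signal only. Of the 43 cytosolic genes above the floor on all arrays, 33 (76.7%) had their highest signal in GFP- and their lowest in GFP+, an order shown by 8.05% of the 10458 such genes. This count depended on the scaling, with 1 of 43 (against 2.46% of all) with median scaling, where 37 of 43 ran GFP+++ over GFP- over GFP+, and 16 of 43 (against 7.59%) with quantile normalization. Among other genes with a mean signal of at least 6000, a limit chosen after the values were seen, 140 of 461 (30.4%) had that order. Of the mitochondrial genes, 3 of 76 had it. The order GFP+++ over GFP+ over GFP- was shown by 40 of 76 mitochondrial genes (52.6%) and by 2 of 43 cytosolic genes, against 27.3% of all. With median scaling these were 70 of 76 and 5 of 43, against 53.9% of all.

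The brightest cytosolic genes show these values. Rpl38, a large subunit protein, gave 18483 in GFP+++ and 14117 in GFP+, against 20019 in GFP-. Rps29, a small subunit protein, gave 16800 in GFP+++ and 12163 in GFP+, against 18082 in GFP-. Rpl7a, a large subunit protein, gave 15562 in GFP+++ and 12978 in GFP+, against 18170 in GFP-. With the trimmed-mean scaling, the GFP- array was the highest and the GFP+ array the lowest in all 3. With median scaling GFP+++ was the highest in all 3 and GFP+ the lowest, and with quantile normalization none of them was highest in GFP-. Mrpl39, the brightest mitochondrial gene and a large subunit protein, gave 5903 in GFP+++ and 5694 in GFP+, against 5559 in GFP-, a range of 1.06-fold. Mrpl27 gave 4622 in GFP+++ and 4967 in GFP+, against 4078 in GFP-, and Mrpl51 gave 4983 in GFP+++ and 4985 in GFP+, against 4297 in GFP-, both large subunit proteins with more signal in the GFP positive fractions. Mrps14, the brightest of the mitochondrial small subunit genes, gave 5073 in GFP+++ and 4207 in GFP+, against 4314 in GFP-.

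GFP+++ against GFP- sets the strongly fluorescent cells, titled immature OSN, against the cells without fluorescence. Mitochondrial ribosomal protein genes were higher in GFP+++ as a class, with a median log2 fold of 0.25 and 71 of 76 genes above 0, against 50.7% of all 12235 genes compared. Among 3212 other genes of similar brightness (mean signal 1000 to 3000), the median was 0.14 and 2041 lay above 0. Cytosolic genes had a median of -0.20 with 8 of 44 above 0, a direction that turned to 0.22 where arrays were scaled by their medians, which put the median of all genes at 0.42 in place of 0.01. The distance to the median of all genes was -0.21 as reported and -0.20 with that scaling for the cytosolic genes, and 0.25 with both for the mitochondrial genes. Apart from the floor, that scaling shifts all folds of a comparison alike, so this distance could hardly change. The classes lay 0.46 apart on the log2 scale, or 1.37-fold. No mitochondrial gene lay below the cytosolic median, and 3 cytosolic genes, Rpl37, Rpl39 and Rps19bp1, lay above the mitochondrial median. Both class medians lay inside the quartiles of all genes, -0.43 and 0.30, so many of all genes lay past each of them. With quantile normalization the difference, cytosolic minus mitochondrial, was -0.28 and with lowess centring -0.29, and 5 and 4 mitochondrial genes then lay below the cytosolic median.

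**Figure D2:**
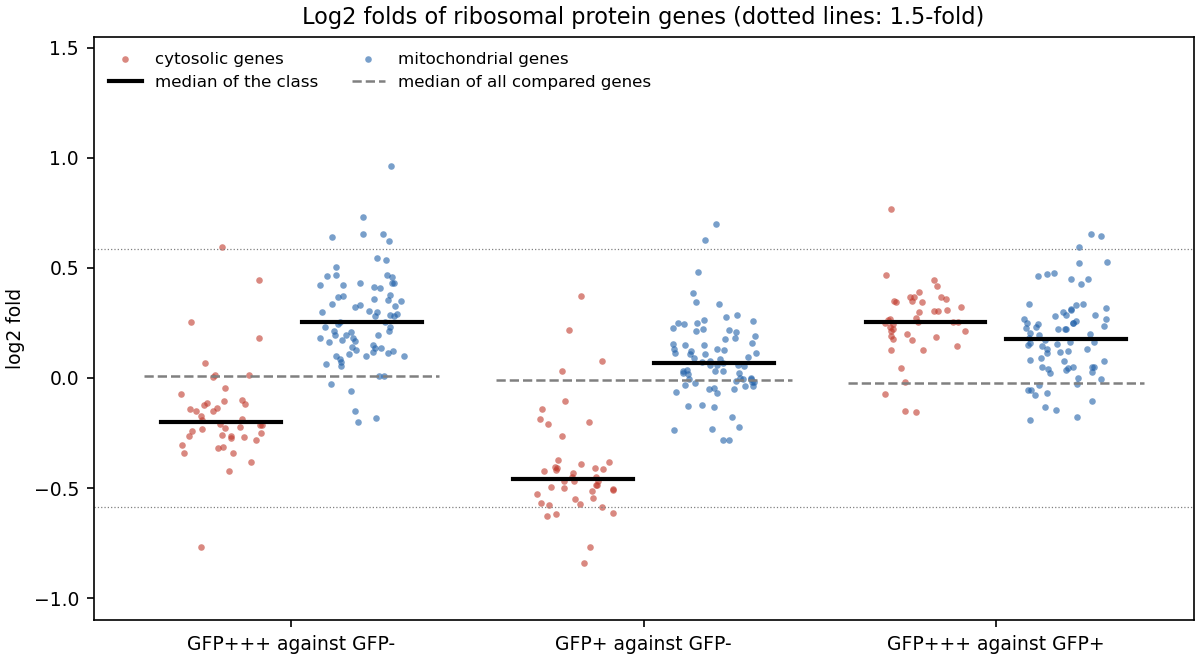
Log2 folds of each cytosolic (red) and mitochondrial (blue) gene in the 3 comparisons, the first-named fraction over the other. Black bars are class medians (-0.20 and 0.25, then -0.46 and 0.07, then 0.26 and 0.18), dashed lines the median of all compared genes and dotted lines a fold of 1.5; the first cytosolic median turns to 0.22 with median scaling.

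Few single genes passed 1.5-fold in this comparison, the size used here for counting. Of the mitochondrial genes, 6 of 76 were at least 1.5-fold higher in GFP+++, against 9.31% of all genes, and 0 were at least 1.5-fold lower, against 20.5% of all genes. With median scaling 52 mitochondrial genes were at least 1.5-fold higher, against 35.7% of all genes under that scaling, and with lowess centring 2 were, against 7.35% of all. With the trimmed-mean scaling the 6 higher genes were Mrpl49, Mrps23, Mrps27, Mrpl36, Mrps18b and Mrpl41. Mrpl49, a large subunit protein, gave 1079 in GFP+++ and 901 in GFP+, against 555 in GFP-, 1.95-fold higher in GFP+++ than in GFP-. Its second probe set gave 941 in GFP+++ and 744 in GFP+, against 661 in GFP-, a log2 fold of 0.51 in place of 0.96. Mrps23, a small subunit protein, gave 1928 in GFP+++ and 1619 in GFP+, against 1162 in GFP-, and its other probe sets had log2 folds of 0.44 and 0.36 in place of 0.73. For these genes the direction held over the probe sets and the size did not.

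Mrps27, a small subunit protein with RNA-binding repeats, gave 442 in GFP+++ and 434 in GFP+, against 281 in GFP-, so both GFP positive fractions lay above GFP-. Mrpl36, a protein of the large subunit, gave 1163 in GFP+++ and 739 in GFP+, against 740 in GFP-. Mrps18b, 1 of 3 related small subunit proteins, gave 1439 in GFP+++ and 920 in GFP+, against 923 in GFP-. Both were high in GFP+++ alone, with GFP+ and GFP- at nearly the same signal. Mrpl41, a large subunit protein, gave 3740 in GFP+++ and 2780 in GFP+, against 2432 in GFP-, and a second probe set had a log2 fold of 0.52 in place of 0.62. At the other end, Mrps28 was lowest relative to GFP-, at 1356 in GFP+++ against 1557 in GFP-, a log2 fold of -0.20. Mrps34 (-0.18), Mrps16 (-0.15), Mrpl33 (-0.06) and Mrpl52 made up the remaining mitochondrial genes below 0 with the trimmed-mean scaling.

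Of the cytosolic genes, Rpl39 alone was at least 1.5-fold higher in GFP+++, against 9.31% of all genes. Only Rps4l, as a bound, was at least 1.5-fold lower, against 20.5% of all genes. With median scaling 4 cytosolic genes were higher, against 35.7% of all, and 1 was lower, against 13.7% of all. Rpl39, a small protein of the large subunit, gave 322 in GFP+++ and 276 in GFP+, against 213 in GFP-. This is a dim probe set for a ribosomal protein, and it ran against its class. Among the genes measured on both arrays, Rpl27a was lowest, at 3286 in GFP+++ against 4401 in GFP- (log2 -0.42). Rps2 gave 9694 in GFP+++ against 12631 in GFP- (-0.38), and Rps26 gave 8500 in GFP+++ against 10764 in GFP- (-0.34). Rpl22, an RNA-binding protein of the large subunit, had 3 probe sets that disagreed, with log2 folds of -0.34, -0.47 and 0.39. Its paralog Rpl22l1 gave 5709 in GFP+++ and 4923 in GFP+, against 5685 in GFP-, close between GFP+++ and GFP-.

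GFP+ against GFP- sets the weakly fluorescent cells against the cells without fluorescence. The cytosolic genes were lower in GFP+ by a median log2 fold of -0.46, with 40 of 44 below 0, and the direction was kept under each of the 3 other scalings (-0.32, -0.11 and -0.19). The mitochondrial genes lay close to all genes, with a median of 0.07 and 51 of 76 above 0, against 48.8% of 12196 genes. The classes lay 0.53 apart, or 1.44-fold. No mitochondrial gene lay below the cytosolic median, while Rpl14, Rpl39 and Rps19bp1 lay above the mitochondrial median. The quartiles of all genes were -0.25 and 0.20, with the mitochondrial median between them and the cytosolic median below both. With quantile normalization the difference was -0.16 and with lowess centring -0.23, and 11 and 6 mitochondrial genes then lay below the cytosolic median.

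At least 1.5-fold higher in GFP+ were 0 of 44 cytosolic genes, against 4.67% of all genes. At least 1.5-fold lower were 6 of 44, against 7.13% of all genes. They were Rpl27a, Rps4l as a bound, Rps7, Rpl37a, Rps28 and Rps26, and 2 genes passed with each of the other scalings, against 3.81% of all genes with median scaling, 6.54% with quantile normalization and 5.85% with lowess centring. Rpl27a gave 2460 in GFP+ against 4401 in GFP-, the lowest fold of the class (log2 -0.84). Rps7, a small subunit protein, gave 9808 in GFP+ against 15144 in GFP- (-0.63), and its second probe set had a log2 fold of -0.53. Rps28, a small subunit protein, gave 11598 in GFP+ against 17721 in GFP- (-0.61), with -0.36 and -0.57 on its other probe sets. For both genes every probe set pointed to less signal in GFP+. The probe sets of Rpl37a disagreed, at -0.62 on the one used and -0.55 and 0.16 on the others. The cytosolic genes above 0 were Rpl39 (276 in GFP+ against 213 in GFP-, log2 0.37), Rpl14 (1133 in GFP+ against 974 in GFP-, log2 0.22), Rps19bp1 (0.08) and Rps6 (1250 in GFP+ against 1223 in GFP-, log2 0.03), all on dim probe sets.

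Of the mitochondrial genes, Mrpl49 (log2 0.70) and Mrps27 (0.63), 2 of 76, were at least 1.5-fold higher in GFP+, against 4.67% of all genes. At least 1.5-fold lower were 0, against 7.13% of all genes. The second probe set of Mrpl49 had a log2 fold of 0.17 here. Mrps31, a small subunit protein, gave 1224 in GFP+ against 936 in GFP- (0.39). Mrpl54 gave 753 in GFP+ against 916 in GFP- and Mrpl33 gave 276 in GFP+ against 335 in GFP-, both with a log2 fold of -0.28, the lowest of the class. The mitochondrial folds thus spread on both sides of 0 in this comparison.

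GFP+++ against GFP+ shares an array with each comparison above, so its folds follow from theirs. Both classes were higher in GFP+++, the cytosolic genes by a median log2 fold of 0.26 (39 of 43 above 0) and the mitochondrial genes by 0.18 (63 of 76), against 47.9% of 11881 genes above 0. The cytosolic median was 0.053 with quantile normalization and 0.042 with lowess centring, against 0.53 with median scaling. The class medians differed by 0.08, and that sign turned to -0.14 with quantile normalization and -0.11 with lowess centring. The classes overlapped, with 34 of 43 cytosolic genes above the mitochondrial median, and 8 of 43 with lowess centring. With the trimmed-mean scaling the quartiles of all genes were -0.40 and 0.24. At least 1.5-fold higher were 1 cytosolic gene, Rpl37 (827 in GFP+++ against 486 in GFP+), and 3 mitochondrial genes, Mrpl36, Mrps18b and Mrps18c, against 6.39% of all genes. No gene of either class was at least 1.5-fold lower, against 18.2% of all. With median scaling, 15 cytosolic and 16 mitochondrial genes were at least 1.5-fold higher, against 19.5% of all genes under that scaling. Mrps25, a small subunit protein, was among the lowest at 1019 in GFP+++ against 1117 in GFP+ (log2 -0.13). Another of its probe sets pointed the other way, at 358 in GFP+++ against 327 in GFP+ (0.13). Mrps18c, of the same small family as Mrps18b, gave 3265 in GFP+++ against 2165 in GFP+. Mrpl54 (1086 in GFP+++ against 753 in GFP+) and Mrpl34 (1707 in GFP+++ against 1189 in GFP+) followed at log2 folds of 0.53 and 0.52.

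The subunits of a ribosome moved alike. For GFP+++ against GFP-, the median log2 fold was -0.15 over 22 large and -0.24 over 21 small subunit genes of the cytosolic class, a direction that turned in the class as a whole with median scaling. For GFP+ against GFP- these were -0.47 and -0.45. The mitochondrial medians for GFP+++ against GFP- were 0.26 over 47 large and 0.25 over 29 small subunit genes, and for GFP+ against GFP- they were 0.08 and 0.06. Mitochondrial proteins whose numbers come from bacterial relatives (43 genes) and those numbered above that range (33 genes) had medians of 0.28 and 0.25 for GFP+++ against GFP-. For GFP+ against GFP- they had 0.02 and 0.13.

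Among the gene copies, Rps27l, a paralog of Rps27, gave 7082 in GFP+++ and 7893 in GFP+, against 8493 in GFP-, and Rpl7l1, a paralog of Rpl7, gave 1010 in GFP+++ and 1063 in GFP+, against 1172 in GFP-. In both the signal was lowest in GFP+++ with the trimmed-mean scaling, unlike most of the class. With median scaling 0 of 43 cytosolic genes had their lowest signal in GFP+++. The other probe sets of Rps27l had their lowest signal in GFP+, at 4601 and 4379. The parent gene Rps27 was read from a dim probe set, at 386 in GFP+++ and 283 in GFP+, against 340 in GFP-. Rpl7 gave 11936 in GFP+++ and 9251 in GFP+, against 13808 in GFP-, and Rps4x, the parent of Rps4l, gave 11022 in GFP+++ and 9743 in GFP+, against 13734 in GFP-.

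Brightness of the probe sets moved with these folds. Of the cytosolic genes, 32 had a mean signal of at least 6000 and no mitochondrial gene did. The bright cytosolic genes had median log2 folds of -0.22 for GFP+++ against GFP- and -0.48 for GFP+ against GFP-, and all 32 lay below 0 in both, relative to the trimmed-mean scaling; with median scaling the class median of the first comparison is positive. The 461 other genes of that brightness had medians of 0.01 and -0.20, with 220 and 371 below 0. The mitochondrial genes had a median mean signal of 1511. Other genes with a mean signal of 1000 to 3000 had medians of 0.14 and 0.08, and those under 1000 had -0.11 and -0.04. The 12 dimmer cytosolic genes, among them Rpl39, Rps6, Rpl14 and Rps19bp1, had medians of 0.01 and -0.19. With folds centred by a lowess curve on signal, the cytosolic medians were -0.17 and -0.19, each with 40 of 44 genes below 0, and the mitochondrial medians 0.12 and 0.03. Of all genes, 6782 of 12235 and 6011 of 12196 lay below 0 with this centring, and their medians were -0.05 and 0.01. The distance between the classes was then -0.29 for GFP+++ against GFP- and -0.23 for GFP+ against GFP-.

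**Figure D3:**
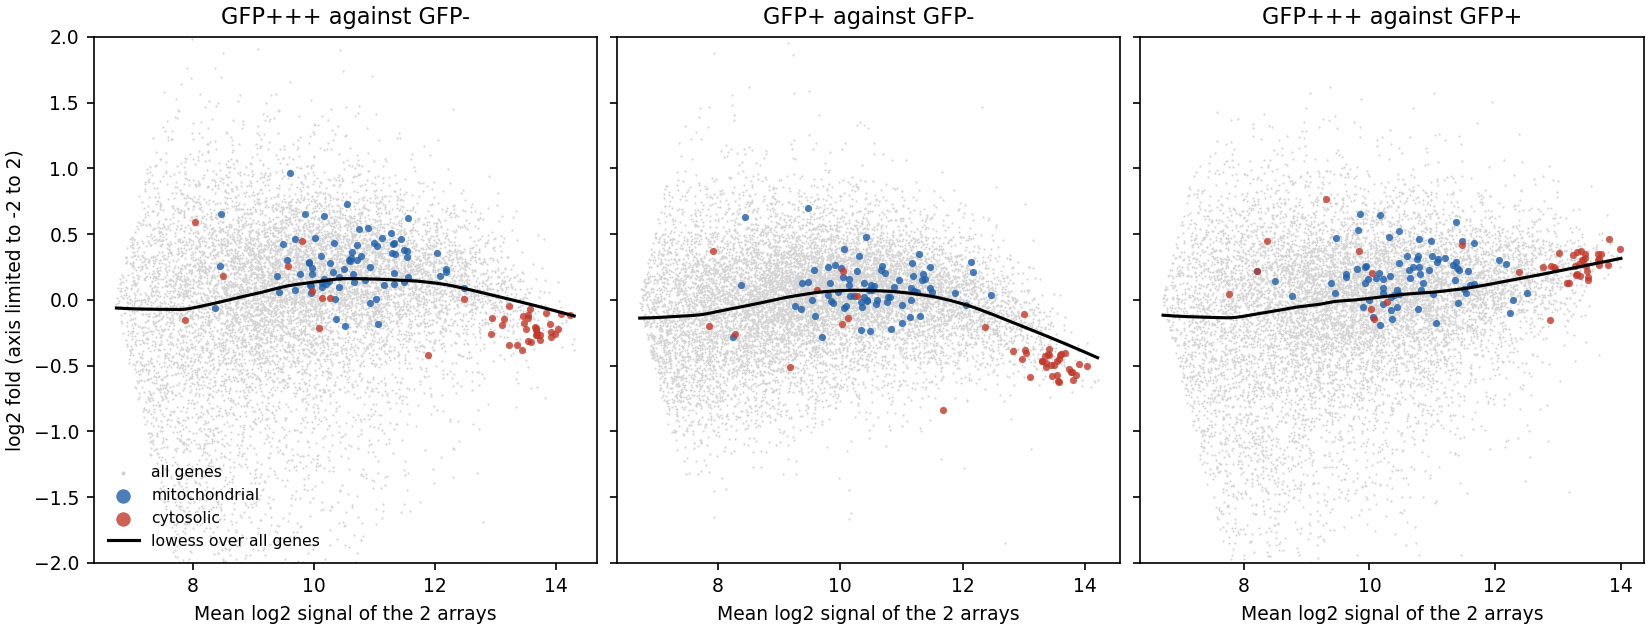
Log2 fold against mean log2 signal of the 2 arrays for genes above the floor on both, with all genes in grey, cytosolic genes in red, mitochondrial genes in blue and a lowess curve over all genes in black; the vertical axis is limited to -2 to 2. Most cytosolic genes sit at the bright end and below the curve in the 2 comparisons with GFP-, and around it in GFP+++ against GFP+; without the curve, the class median of GFP+++ against GFP- is -0.20, or 0.22 with median scaling.

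Control probe sets of the same arrays, given as geometric means over their probe sets, followed the order of the cytosolic medians in part. The cre hybridisation spikes, which were added to every sample, gave 11944 in GFP+++ and 7431 in GFP+, against 15369 in GFP-, and the bioB, bioC and bioD spikes gave 604 in GFP+++ and 315 in GFP+, against 743 in GFP-. Gapdh, a glycolytic enzyme that served as a control, gave 12472 in GFP+++ and 10839 in GFP+, against 13519 in GFP-. With the trimmed-mean scaling, the spikes and Gapdh were highest in GFP- and lowest in GFP+. Their order with the other scalings was not computed. Beta-actin, the cytoskeletal control, had another order, at 7700 in GFP+++ and 8580 in GFP+, against 10502 in GFP-. The 18S ribosomal RNA, a part of the cytosolic ribosome itself, gave 1893 in GFP+++ and 4963 in GFP+, against 8310 in GFP-. Ribosomal RNA is measured through its remnant in the labelled material, so these values are not its content in the cells. The part of these control signals in the folds of the cytosolic genes was not tested.

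Markers of cell types moved with the fractions too. All 8 immature OSN markers lay above 0 in GFP+++ against GFP-, with summed signals of 68307 in GFP+++ and 43120 in GFP+, against 48515 in GFP-. The 5 markers of dividing cells summed to 8042 in GFP+++ and 13888 in GFP+, against 18950 in GFP-, and all were lower in GFP+++. The 4 basal cell markers summed to 266 in GFP+++ and 1231 in GFP+, against 1945 in GFP-, with 3 of them under the floor in GFP+++. The 6 immune cell markers summed to 572 in GFP+++ and 12030 in GFP+, against 14918 in GFP-, also with 3 under the floor in GFP+++, and the 6 connective tissue markers summed to 2369 in GFP+++ and 24835 in GFP+, against 40795 in GFP-. The 8 mature OSN markers summed to 51773 in GFP+++ and 73736 in GFP+, against 70461 in GFP-, and the 6 sustentacular markers to 43133 in GFP+++ and 52799 in GFP+, against 72799 in GFP-. The 3 erythroid markers summed to 104 in GFP+++ and 659 in GFP+, against 1031 in GFP-. All 3 were under the floor in GFP+++, and 1 was under it in GFP+ and 1 in GFP-. Apart from that of the immature OSN markers, every marker sum was lowest in GFP+++. The part of these cell types in the ribosomal protein folds was not tested.

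**Figure D4:**
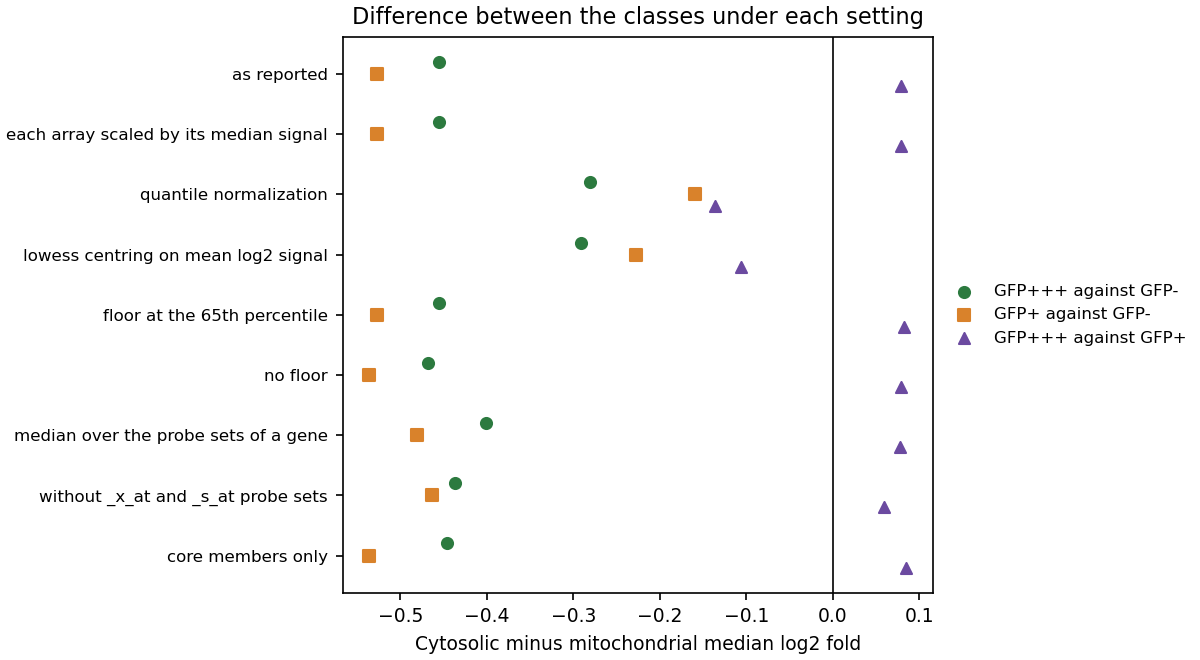
Cytosolic minus mitochondrial median log2 fold (horizontal axis) under each setting, for GFP+++ against GFP- (circles), GFP+ against GFP- (squares) and GFP+++ against GFP+ (triangles). The first lies between -0.47 and -0.28 and the second between -0.54 and -0.16, below 0 throughout, while the third lies at 0.08 as reported and turns to -0.14 and -0.11 with quantile normalization and lowess centring.

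Other genes of translation were read as lists. The list medians are given for GFP+++ against GFP- and then for GFP+ against GFP-, beside 0.01 and -0.01 for all genes, and the negative medians of the first comparison turn positive with median scaling. Cytosolic ribosomal proteins outside the name rule (Rplp0 and Rplp2 of the stalk, Rpsa and Fau, 4 of 7 listed on the array) had medians of -0.27 and -0.47, with 4 of 4 below 0 in both. Rplp0 gave 7492 in GFP+++ and 6689 in GFP+, against 10045 in GFP-. The log2 folds of GFP+++ against GFP- were -0.42 for Rplp0, -0.31 for Rpsa, -0.23 for Rplp2 and -0.17 for Fau. Other mRNAs known for a TOP motif had medians of -0.22 and -0.17 over 5 genes. Tpt1, a very abundant growth-related protein, gave 17609 in GFP+++ and 14841 in GFP+, against 22936 in GFP-, while Hnrnpa1, a splicing regulator, gave 4431 in GFP+++ and 3089 in GFP+, against 3485 in GFP-. For Naca, of the nascent chain complex, GFP+++ against GFP- came to -0.25 on the log2 scale, and for its partner Btf3 to 0.05.

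Elongation and initiation factors differed gene by gene. The 6 elongation factors had medians of -0.18 and -0.24. Eef1b2, the exchange factor of elongation factor 1, gave 5445 in GFP+++ and 6093 in GFP+, against 8545 in GFP-, whereas Eef2, the translocation factor, gave 11219 in GFP+++ and 9593 in GFP+, against 11188 in GFP-. In GFP+++ against GFP-, Eef1d, also of the exchange complex, had a log2 fold of -0.52, and Eef1e1, of the synthetase complex, had 0.46. The 25 initiation factors with the poly(A) binding protein had medians of -0.03 and -0.11, with 10 and 6 above 0. Pabpc1, which binds the poly(A) tail and whose mRNA is also a TOP mRNA, gave 8574 in GFP+++ and 9555 in GFP+, against 13286 in GFP-, and was the only one at least 1.5-fold lower in GFP+++. Eif6, which keeps the subunits apart, gave 2489 in GFP+++ and 2069 in GFP+, against 1825 in GFP-. The log2 fold of GFP+++ against GFP- was 0.43 for Eif3k, a subunit of the eIF3 complex, and -0.35 for the subunit joining factor Eif5b.

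The nucleolar assembly factors split. Over 37 genes the medians were 0.01 and -0.09, with 19 above 0 and 18 below in GFP+++ against GFP-. Nob1, the nuclease that finishes the small subunit rRNA, gave 981 in GFP+++ and 719 in GFP+, against 383 in GFP-, and Rrp9, a small nucleolar RNP protein, gave 575 in GFP+++ and 524 in GFP+, against 273 in GFP-. Noc3l, which acts in large subunit assembly, gave 153 in GFP+++ and 209 in GFP+, against 274 in GFP-, and Tsr1, a small subunit assembly factor, gave 513 in GFP+++ and 840 in GFP+, against 896 in GFP-. The list held both the 2.56-fold higher Nob1 and the 1.79-fold lower Noc3l. RNA polymerase I subunits and factors with Myc and Mycn had medians of 0.15 and 0.05 over 12 genes. Myc, which drives ribosome synthesis in dividing cells, gave 113 in GFP+++ and 292 in GFP+, against 282 in GFP-. For GFP+++ against GFP-, the catalytic subunit Polr1a had a log2 fold of -0.69, while Taf1a, of the promoter selectivity factor, had 0.45 and the shared subunit Polr1d had 0.43.

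On the mitochondrial side, 20 genes of ribosome assembly and mitochondrial transcription had medians of 0.29 and 0.11, with 16 above 0 in GFP+++ against GFP-. Mrm1, a methyltransferase of mitochondrial rRNA, gave 347 in GFP+++ and 213 in GFP+, against 214 in GFP-. Ngrn, needed for the stability of mitochondrial 16S rRNA, gave 3012 in GFP+++ and 2805 in GFP+, against 1966 in GFP-. Tfb2m, a transcription factor of mitochondrial DNA, went the other way, at 698 in GFP+++ and 859 in GFP+, against 976 in GFP-, as did the assembly factor Rbfa, at 1002 in GFP+++ and 892 in GFP+, against 1174 in GFP-. The 4 mitochondrial ribosomal proteins outside the name rule split, with medians of 0.01 and -0.04. Dap3, a GTP-binding protein of the small subunit, gave 533 in GFP+++ and 783 in GFP+, against 843 in GFP-, while Gadd45gip1, a large subunit protein, gave 680 in GFP+++ and 547 in GFP+, against 561 in GFP-. Their log2 folds of GFP+++ against GFP- were -0.66 and 0.28, and the small subunit proteins Ptcd3 and Chchd1 had -0.22 and 0.24. Mitochondrial translation factors had medians of 0.11 and 0.11 over 9 genes. In GFP+++ against GFP-, the elongation factors Tsfm and Tufm had log2 folds of 0.30 and 0.27, the release factor Mtrf1l -0.24 and the initiation factor Mtif2 -0.21. Aminoacyl-tRNA synthetases, which charge tRNAs, had medians of 0.15 and 0.04 over 19 cytosolic genes and of 0.17 and 0.04 over 15 mitochondrial ones. Vars, the cytosolic valyl-tRNA synthetase, lay apart at 587 in GFP+++ and 567 in GFP+, against 896 in GFP-. The other cytosolic extremes in GFP+++ against GFP- were Farsa and Yars, both at a log2 fold of 0.43, and Lars at -0.13. The mitochondrial ones were Tars2 at 0.45, Yars2 at 0.44, Iars2 at -0.46 and Pars2 at -0.40.

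**Figure D5:**
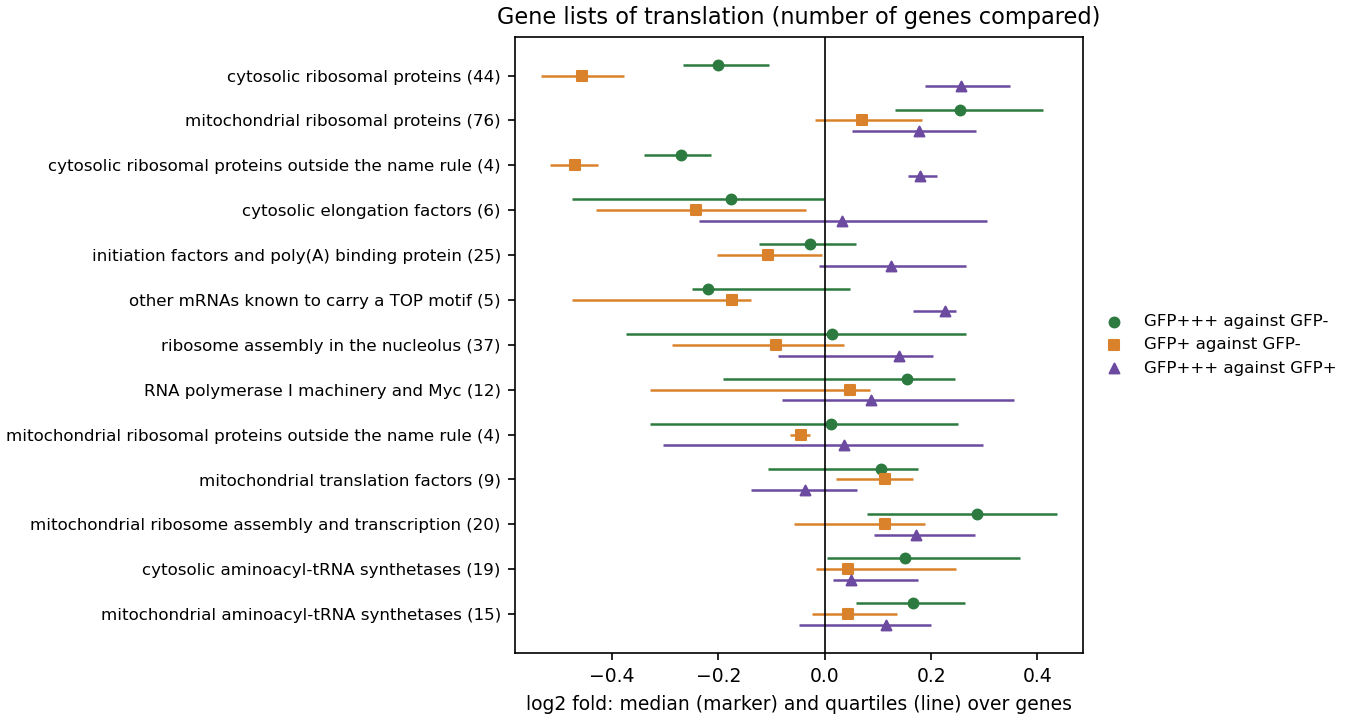
Median log2 fold (markers) and quartiles over genes (lines) of the 2 ribosomal protein classes and the other translation lists, with the number of genes compared in parentheses; circles are GFP+++ against GFP-, squares GFP+ against GFP- and triangles GFP+++ against GFP+. The cytosolic class and the 4 cytosolic proteins outside the name rule have the lowest medians for GFP+ against GFP- (-0.46 and -0.47), and the negative medians of GFP+++ against GFP- turn positive with median scaling.

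Genes with further probe sets showed how far the folds of different probe sets of a gene lay apart. This spread is no measure of the error between arrays, which needs replicates. The pooled SD of the log2 fold over probe sets of a gene was 0.31 for cytosolic and 0.24 for mitochondrial genes in GFP+++ against GFP-, and 0.19 and 0.22 in GFP+ against GFP-. These SDs describe single genes and not the class medians. Of the other probe sets above the floor, 30 of 45 cytosolic and 48 of 53 mitochondrial ones had the direction of the chosen probe set in GFP+++ against GFP-, and 40 of 45 and 38 of 51 in GFP+ against GFP-. The median over the other cytosolic probe sets was -0.09 in the first comparison and -0.39 in the second, and over the mitochondrial ones 0.31 and 0.12.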

How the data were processed

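The authors deposited 1 signal intensity per probe set and array, on a linear scale. The submitters' processing notes name MAS5 as the tool; neither its version nor its settings is given in the sources used here. Probe sets of the Affymetrix mouse genome array were named through the platform annotation, and of 45101 probe sets the 34945 with 1 symbol were used, which leaves out many that match a ribosomal protein gene and its pseudogenes. A common 2% trimmed mean of 500.0 was set on each array, which the deposited intensity values already had. Signals under the pooled median of 104 were raised to that floor, and a gene was compared where 1 or both of the 2 arrays lay above it; with 1 array under it, a fold is a bound and is written "at least". Each group has 1 array, so sizes and counts are given with no test, and precision is limited by the number of arrays.

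The members, the gene lists and the comparisons were chosen with earlier results of these data known. Genes were named by a rule: the 4 brightest of each class, the 4 highest and 4 lowest folds of each comparison, the gene copies with their parents, and the 2 highest and 2 lowest of each translation list, with cell type markers given as sums; a few further names were chosen after their values were seen. Starts and sequences are from RefSeq, where 108 of the 123 genes had a promoter. The alternatives were 3 other scalings, another floor and none, other choices of probe set, and the members without copies and Rps19bp1; signal orders, class overlap and shares of all genes under the other scalings were added after the data were seen. Python 3.11.15, pandas 2.3.3, numpy 2.4.6, statsmodels 0.14.6 (lowess over 0.3 of the genes) and matplotlib 3.10.9 were used, and the steps were tested on simulated data.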

Additional observations from a re-analysis of the deposited data

How the results depend on the processing

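No paired analysis was possible because each fraction had 1 array. Of the recomputed class medians, class differences and 1.5-fold counts, 85 stayed close, 32 moved and 3 changed sign. The limit for a median to count as moved was a shift of 0.1. Some of these values could not change. Leaving out the copies and Rps19bp1 removes no mitochondrial gene, and scaling by array medians cannot alter the class differences beyond the floor. The tally is therefore no measure of how stable the results are. Scaling by array medians moved the class medians by construction: for GFP+++ against GFP- the cytosolic median turned to 0.22 and the mitochondrial one became 0.67, with 5 and 52 genes past 1.5-fold. It gave -0.32 and 0.21 with 2 cytosolic genes past 1.5-fold for GFP+ against GFP-, and 0.53 and 0.45 with 15 and 16 genes for GFP+++ against GFP+, and left the class differences as they were. Quantile normalization gave cytosolic medians of -0.052, -0.11 and 0.053 and class differences of -0.28, -0.16 and -0.14 in the same order of comparisons, the last with its sign turned, and 2 cytosolic genes past 1.5-fold in each of the comparisons with GFP+. Lowess centring gave a mitochondrial median of 0.12 with 2 genes past 1.5-fold for GFP+++ against GFP-, cytosolic medians of -0.19 with 2 genes for GFP+ against GFP- and 0.042 for GFP+++ against GFP+, and differences of -0.29, -0.23 and, with its sign turned, -0.11. The cause of these shifts was not tested. Counts of cytosolic genes past 1.5-fold in GFP+++ against GFP- were 0 with the floor at the 65th percentile, 5 with no floor, 5 without probe sets ending in _x_at or _s_at and 1 without gene copies and Rps19bp1. In GFP+++ against GFP+ they were 4 with no floor, 2 with the median over probe sets, where 6 mitochondrial genes passed, and 2 without the _x_at and _s_at probe sets. Of the recomputed folds of named genes, 747 counted as close and 72 as moved, 39 of the latter with scaling by array medians. Close does not mean unchanged here. That scaling shifts all folds of a comparison, with all-gene medians of 0.42, 0.13 and 0.25, yet 80 folds counted as close under it. Changes of sign were not labelled apart for single genes.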

Other observations

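Probe sets that carry several gene symbols were left out of the gene values because their signal cannot be given to 1 gene. Of these, 109 include a cytosolic ribosomal protein symbol and 4 a mitochondrial one, and they read the same gene families through probe sets that the gene values did not use. The 102 cytosolic ones compared had a median log2 fold of -0.15 for GFP+++ against GFP-, -0.46 for GFP+ against GFP- and 0.28 for GFP+++ against GFP+. Below 0 lay 83, 95 and 5 of them, against 6032 of 12235, 6242 of 12196 and 6191 of 11881 genes. The 3 mitochondrial ones compared had medians of 0.40, 0.11 and 0.27, all above 0. In GFP+ against GFP-, 10 of the 102 cytosolic ones were at least 1.5-fold lower, against 7.13% of all genes. At least 1.5-fold higher were 0, against 4.67% of all genes. They share the arrays, and so their scaling, with the genes of the report, and the first of the cytosolic medians would turn positive with scaling by array medians, which puts the median of all genes at 0.42.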
